A study of Mus musculus with 8 samples.

Results

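The m6A maps of mouse embryonic stem cells (ESCs) were examined at 10 genes of Nodal and BMP signalling, namely Nodal, Lefty1, Lefty2, Tdgf1, Smad3, Smad7, Skil, Id1, Id2 and Id3. A peak belonged to a gene when its exon blocks shared at least 1 base, on the same strand, with the exons of that gene in GENCODE release M21 (GRCm38, mm10). By this rule the 10 genes held 14 of the 18895 peaks of the DMSO list and 12 of the 13001 peaks of the Dox list. The maps came from methylated RNA immunoprecipitation sequencing (MeRIP-seq), in which mRNA fragments bound by an antibody against N6-methyladenosine (m6A) are sequenced as the IP library beside an unselected input library. All cells were of the E14 line and carried both a doxycycline (Dox)-inducible Dux transgene, whose product drives ESCs into a state like the 2-cell embryo, and a tdTomato reporter transgene driven by the Mervl promoter. Controls received DMSO and the other cells Dox, each for 24 h, with 2 replicates of IP and of input per treatment, 8 libraries in all. Replicates had been combined into 1 peak list per treatment, so no value below has a replicate error and no difference between the treatments could be tested. Neither the labels nor the methods say whether the replicates were separate cultures, or whether the cells were 1 clone. In a bulk sample, fewer cells of a type and less RNA per cell cannot be told apart.

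Nodal is a secreted ligand of the TGF-beta family that acts through activin receptors and the co-receptor Tdgf1 (Cripto), and its signal is carried to the nucleus by Smad2 and Smad3 with Smad4. Lefty1 and Lefty2 are secreted inhibitors that the pathway itself switches on, as are the inhibitory Smad7 and, in many cells, the SMAD co-repressor Skil (SnoN). BMP ligands act through Smad1, Smad5 and Smad9, and in ESCs they keep up the Id genes, whose products bind helix-loop-helix transcription factors and block differentiation. m6A is laid down by the Mettl3 and Mettl14 complex, mostly within the consensus DRACH (where C is barred from the first place and G from the last, and R is A or G), of which GGAC followed by A, C or T is a common form.

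The sequences that follow are 30-base windows of the reference mRNA (GRCm38, written as DNA, 5′ to 3′) around motifs inside the peaks, with the motif in capitals. They are shown so that the motifs of shared peaks and of peaks found with DMSO alone can be read side by side. Distances are counted in nt along the mRNA from the first base of the stop codon and negative values lie upstream of it. The transcript used was the one with the longest coding sequence. The first pair lies in the coding sequence of Nodal, at -842 and -280 (chr10:61422993-61423022 and chr10:61423555-61423584, plus strand), in a peak found with both treatments.
Nodal -842: accggacagaactGGACtttcacgtttgac
Nodal -280: tcaagttccaggtGGACttcaacctgattg
The next pair lies in the Nodal 3′UTR at 614 and 628 (chr10:61425235-61425264 and chr10:61425249-61425278), also in a peak of both lists.
Nodal 614: cttgtccaagaggGGACtggccatggtgga
Nodal 628: gactggccatggtGGACtttagaagccaga
Tdgf1 had 1 GGAC in its distal 3′UTR peak, at 820 (chr9:110939870-110939899, minus strand), while its peak next to the stop codon held no GGAC and 3 other DRACH matches, of which those at 87 and 134 are shown (chr9:110940603-110940632 and chr9:110940556-110940585).
Tdgf1 820: ggaggctacaacaGGACtactaaaagctca
Tdgf1 87: atgttacccctcaAAACActaactaggcct
Tdgf1 134: tcctctttctggaAAACTatggcgtgtgtg
For Skil, the window at -4 (chr3:31118594-31118623, plus strand) ends its motif directly before the TAA stop codon and lay in the DMSO form of a shared peak, and the window at -1025 (chr3:31098318-31098347) lay in a peak with no Dox counterpart.
Skil -4: ccaagccctccaaGGACtaagagctgaaga
Skil -1025: caaaaatacctagGGACacccgaagaaaag
The last pair gives the motif of the only Id1 peak, at 277 (chr2:152737109-152737138, plus strand), which was in the DMSO list, and the GGAC at 185 in the Id3 peak of both lists (chr4:136145026-136145055, plus strand).
Id1 277: taccgcagccaccGGACtcttggcggatcg
Id3 185: gagcccgagagaaGGACtgaacttgggtgg

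At least 1 peak was found in 6 of the 10 genes. Nodal, Tdgf1, Smad7, Skil and Id3 had peaks with both treatments, Id1 had a peak with DMSO alone, and Lefty1, Lefty2, Smad3 and Id2 had none. Thus 6 of 10 genes carried a peak in the DMSO list, where 27.6% of all 21938 protein-coding genes did, and 5 of 10 in the Dox list, where 22.2% did. Of the 6 genes with a DMSO peak, 1 had no Dox peak (Id1), beside 22.0% of all genes with a DMSO peak. A peak needs reads, and neither expression nor sequencing depth was analysed here, so a gene without a peak may have been expressed too little to give one. With 10 genes, these counts are a description of the genes and were not tested.

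**Figure D1:**
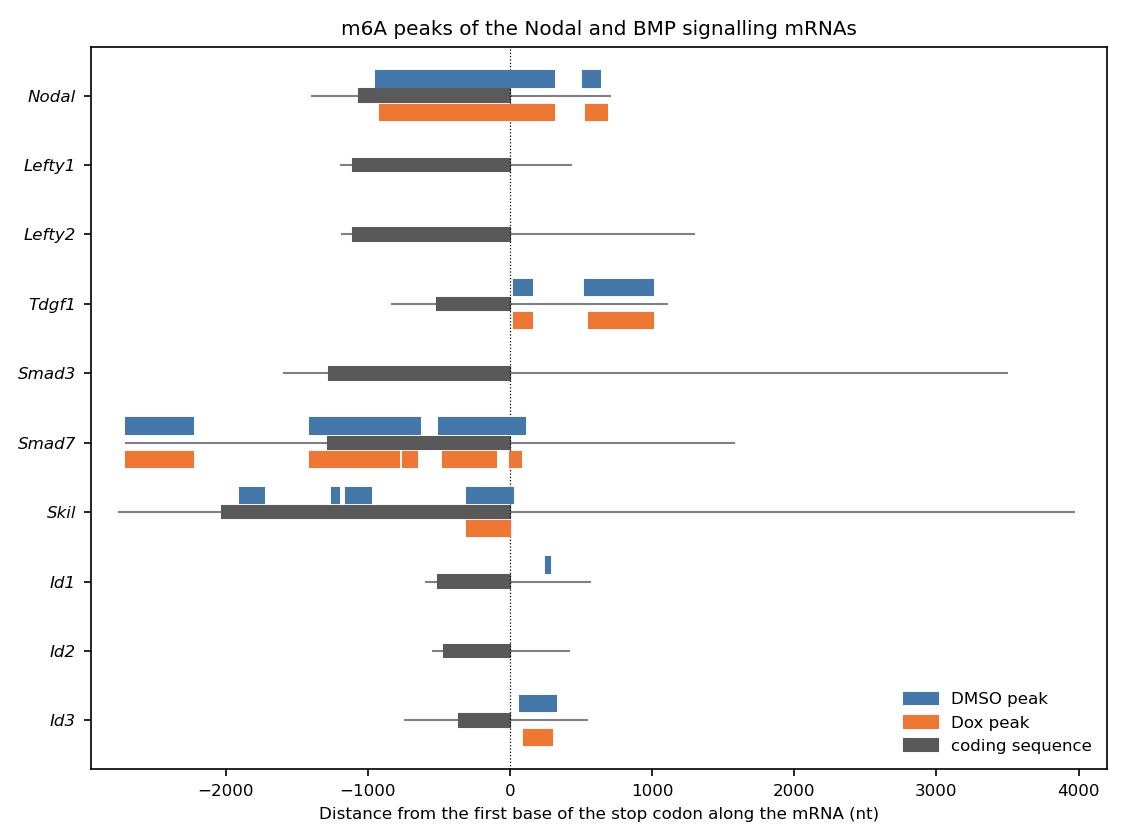
Peaks along the 10 mRNAs, placed by distance in nt from the first base of the stop codon (dotted line). Grey bars are coding sequence and thin lines are UTRs of the transcript with the longest coding sequence. Blue bars above and orange bars below each mRNA are peaks of the DMSO and the Dox list. The broad Nodal peak, the 5′UTR peak of Smad7 and both Tdgf1 peaks lie at the same place in both lists to within 25 nt at each edge. So do the shared Skil peak, the Id3 peak and the shortest Smad7 peak. The Id1 peak and 3 coding peaks of Skil are in the DMSO list alone. Smad7 bases that lie outside this transcript are not drawn.

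Nodal (ENSMUSG00000037171.6, chr10:61417972-61425338, plus strand) was covered over most of its length, and equally with both treatments. Each list held 1 broad spliced peak that crossed all 3 exons and the stop codon. With DMSO it was 1250 nt long, from -940 to 309 (chr10:61418422-61424943), and with Dox it was 1225 nt long, beginning 25 nt further downstream and ending at the same base. Both forms held 11 GGAC matches. The authors' scores, read here as −log10 p-values of IP over input, were 11.7 for DMSO and 11.9 for Dox. A score can be ranked only within its list, because it grows with depth, and these stood at the 52.5 and 62.0 percentiles of their lists.

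The other Nodal peak lay in the 3′UTR. It was 125 nt long with DMSO (chr10:61425144-61425268) and 150 nt long with Dox (chr10:61425169-61425318), the edges being moved downstream by 25 and 50 nt, and 100 nt were shared. Its score was 10.8 with DMSO, at the 20.3 percentile, and 12.6 with Dox, at the 73.8 percentile. Both forms held the GGAC motifs at 614 and 628. In sum the peaks covered 1375 of the 2095 exon bases of Nodal in each list (65.6%), of which 1325 were common.

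Lefty1 (chr1:180935022-180938400) and Lefty2 (chr1:180893108-180899103), the feedback inhibitors of Nodal, had no peak in either list. The mRNA of Lefty1 held 12 GGAC matches (7.41 per kb) and that of Lefty2 held 14 (5.66 per kb). That of Nodal held 15 (7.16 per kb). The median was 13 (4.25 per kb) over the 6170 mRNAs with a peak in either list. Over the 15494 mRNAs without a peak it was 9 (3.88 per kb). The part of the motif in the missing peaks was not tested. The mRNAs of Lefty1 and Lefty2 were 91.2% identical over 1159 nt. How the aligner treated reads that fit both is not given in the sources used here, and the part of this likeness in the missing peaks was not tested.

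Tdgf1 (ENSMUSG00000032494.12, chr9:110939603-110946158, minus strand), the co-receptor of Nodal, had 2 peaks in each list, all within the 3′UTR. The peak nearer to the stop codon, at 29 to 153 (chr9:110940553-110940677), was 125 nt long and had the same edges in both lists, with scores of 11.7 for DMSO and 11.9 for Dox. The distal peak (chr9:110939703-110940177 with DMSO) was 475 nt long with DMSO and 450 nt with Dox. Its upstream edge was 25 nt further downstream with Dox. The distal peak had the higher score in each list, 13.4 and 13.6, at the 80.1 and 84.8 percentiles. Another place in the genome matched the whole distal peak at 90.6% identity (90.1% for the Dox form), which is under the 98% at which a locus was counted as near-identical. None of the 26 peaks of the 10 genes had a near-identical locus.

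Smad3 (chr9:63646767-63757994, minus strand), a carrier of the Nodal signal, had no peak in either list. Its mRNA of 5090 nt held 12 GGAC matches, or 2.36 per kb, close to the 2.38 per kb of Skil, which had peaks in both lists. Smad7 (ENSMUSG00000025880.11, chr18:75367529-75395935, plus strand), an inhibitory SMAD that blocks the receptors, held the most covered bases of the set, 1875 with DMSO and 1675 with Dox. It was the only one of the 5 genes present in both lists with more Dox than DMSO peaks, 6 against 4, where 13.5% of all 4730 such genes had more.

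The best-scoring peak of the whole set lay at the 5′ end of Smad7. It began at the first annotated base of the gene, was 475 nt long with the same edges in both lists (chr18:75367529-75368003), and held 5 GGAC matches. Its scores of 25.9 for DMSO and 23.0 for Dox stood at the 98.5 and 98.3 percentiles, and the next best peak among the 10 genes scored 13.7 with DMSO and 13.6 with Dox. Few peaks reach the first annotated base of a protein-coding gene, 44 with DMSO (0.233%) and 43 with Dox (0.331%). The middle base of 1 member peak per list, this one, lay in a 5′UTR, which is 1 of 14 with DMSO and 1 of 11 with Dox, beside 3.42% and 3.87% of all peaks on mRNAs. The antibody also binds m6Am, a mark next to the cap of mRNA, and which of the marks gave this peak was not tested.

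The 2 additional Dox peaks of Smad7 arose where 1 DMSO peak faced 2 Dox peaks. The DMSO peak of 750 nt across the start of the coding sequence (chr18:75368829-75369985, score 13.7) faced Dox peaks of 625 nt (score 11.8) and 100 nt (score 10.6) with 25 nt between them. The DMSO peak of 600 nt that crossed the stop codon, from -498 to 101 (chr18:75393865-75394464, score 12.4), faced Dox peaks of 375 nt (score 12.3) and 75 nt (score 10.7) with 100 nt between them. The higher number of Dox peaks therefore went with fewer covered bases. Among the 10 member DMSO peaks with a Dox peak over them, these 2 were overlapped by more than 1, beside 12.1% of all overlapped DMSO peaks. The remaining Smad7 peak, 50 nt with DMSO (score 12.1) and 25 nt with Dox (score 12.3), had 16 bases in an alternative first exon of another transcript.

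Skil (ENSMUSG00000027660.16, chr3:31095058-31122577, plus strand), the co-repressor that binds SMADs, had the widest gap in coverage among the 5 genes present in both lists. It had 4 DMSO peaks over 725 bases and 1 Dox peak over 300 bases. The shared peak was spliced across exons 6 and 7. With DMSO it ran from -302 to 22 (325 nt, score 12.1, 62.2 percentile) and with Dox from -302 to -3 (300 nt, score 11.3, 40.5 percentile). The DMSO form thus held the stop codon and the GGAC motif directly before it, and the Dox form ended inside that motif, which amounts to 1 step of the 25 nt grid on which the peaks were placed.

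The 3 other DMSO peaks of Skil lay in the coding part of exon 2 and had no Dox peak over them. The most upstream one (chr3:31097453-31097627) was 175 nt long with a score of 12.5, at the 69.2 percentile, and was the best-scoring peak of the gene. Of all DMSO peaks of 150 to 200 nt between the 60 and 80 percentiles, 79.2% (95% Wilson interval 76.4 to 81.8, n = 848) had a Dox peak over them. The peak at chr3:31098203-31098377 was also 175 nt long, with a score of 11.1 (32.4 percentile), and 64.3% (61.1 to 67.5, n = 861) of DMSO peaks of that length between the 20 and 40 percentiles had a Dox peak over them. The peak at chr3:31098103-31098152, of 50 nt and score 10.8 (20.5 percentile), belonged to a class of short and low-scoring peaks (25 to 50 nt, 10 to 30 percentiles) of which only 13.9% (12.2 to 15.7, n = 1470) had a Dox peak over them. With equal list sizes, that is with the 13001 best-scoring peaks of each list, this short peak was dropped, and Skil had 3 DMSO peaks over 675 bases against 1 Dox peak over 300. Peaks of 1 mRNA share its reads, so the 3 peaks are not independent of each other, and the level of Skil mRNA was not analysed here.

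**Figure D2:**
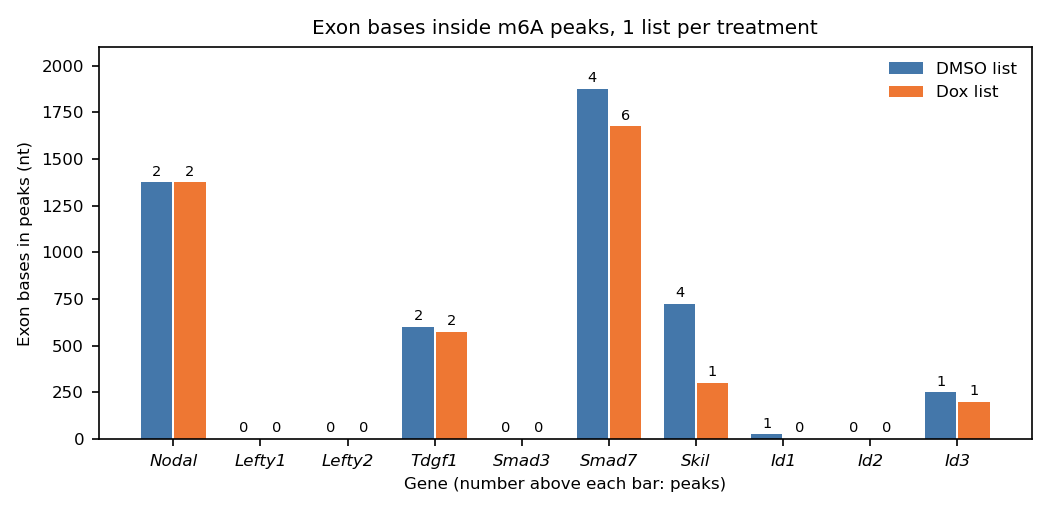
Exon bases inside peaks (nt) for each of the 10 genes in the DMSO list (blue) and the Dox list (orange), with the number of peaks above each bar. There is 1 list per treatment and no error bar can be given. Nodal is equal at 1375, Smad7 is highest at 1875 and 1675, and Skil shows the widest gap at 725 and 300.

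The Id genes, targets of BMP signalling, differed among themselves. Id3 (ENSMUSG00000007872.3, chr4:136143497-136145755, plus strand) had 1 peak in its 3′UTR in each list, of 250 nt at 71 to 320 with DMSO (chr4:136144925-136145174, score 11.1) and of 200 nt at 96 to 295 with Dox (score 11.2). The Dox form was shorter by 25 nt at each edge and lay wholly inside the DMSO form. It held 2 GGAC matches where the DMSO form held 3.

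Id1 (ENSMUSG00000042745.9, chr2:152736251-152737410, plus strand) had a single peak in the 3′UTR, in the DMSO list alone (chr2:152737101-152737125). It was 25 nt long, the smallest step of the grid, and scored 10.7, at the 18.1 percentile of a list whose scores begin at 10. Peaks of 25 nt made up 16.6% of the DMSO and 16.5% of the Dox list, and among the 10 genes there was 1 in each list, the other being in Smad7. Of DMSO peaks of 25 nt between the 10 and 30 percentiles, 12.3% (10.3 to 14.7, n = 859) had a Dox peak over them. With equal list sizes the Id1 peak was dropped, and the same 5 genes then carried a peak in each list. The middle of the peak lay at 268 from the stop codon on the transcript with the longest coding sequence and at 102 on the other coding transcript.

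Id2 (ENSMUSG00000020644.9, chr12:25093799-25097140, minus strand) had no peak. Its mRNA held 9 GGAC matches, or 9.39 per kb, the same density as in the mRNA of Id3, which held 12. That of Id1 held 9, or 7.76 per kb. These densities depend on the transcript used, which for Id1 and Id2 had 1 exon each. That of Id2 was 958 nt long, where the gene has 2438 exon bases. Within 200 nt of the stop codon Id1 and Id2 each held 4 and Id3 held 8. The median there was 2 for mRNAs with a peak and 1 for those without. In the best local match the mRNAs of Id1 and Id2 were 80.9% identical over 141 nt.

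**Figure D3:**
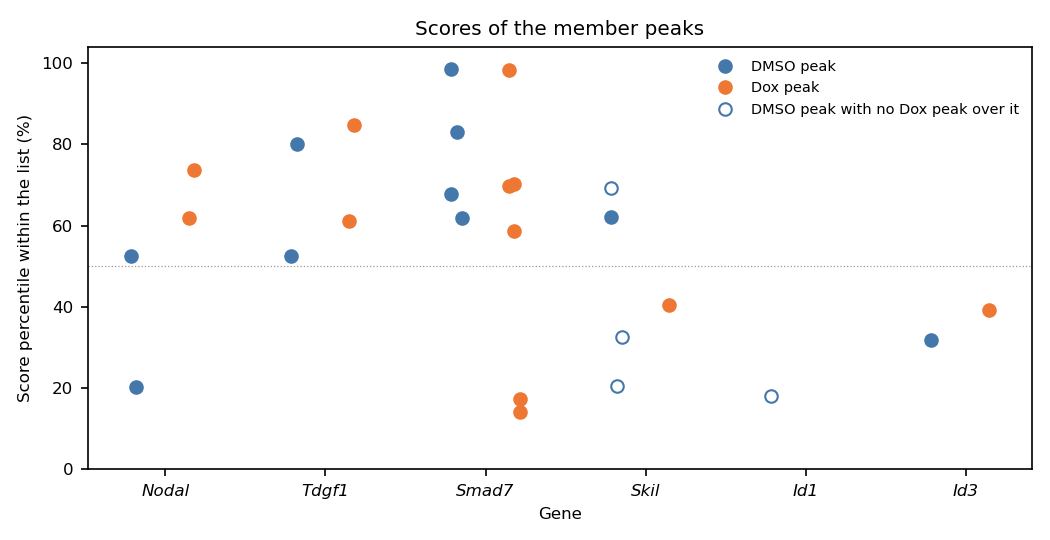
Percentile of the score of each peak within its own list (%), by gene, for DMSO (blue) and Dox (orange). Filled points are peaks overlapped by the other list, open points are the 4 DMSO peaks with no Dox peak over them, and the dotted line is the list median. Points reach from 18.1 to 98.5 with DMSO and from 14.1 to 98.3 with Dox. The open points are 3 Skil peaks and the Id1 peak, and 1 of them, in Skil, lies above the median.

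Across the 10 genes, the DMSO peaks scored between 10.7 and 25.9 with a median percentile of 57.2, and the Dox peaks between 10.6 and 23.0 with a median percentile of 61.5. Above the list median lay 9 of 14 peaks with DMSO and 8 of 12 with Dox. The peaks were long, with medians of 212.5 nt for DMSO and 250 nt for Dox against 125 nt over all peaks of either list. Peaks of 600 nt or more made up 3 of 14 and 2 of 12, beside 4.83% and 4.42% of all peaks, and they were those of Nodal and Smad7.

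Of the 14 DMSO peaks, 10 (71.4%, 95% Wilson interval 45.4 to 88.3) had a Dox peak over them, where 57.0% of all DMSO peaks did. Of the 12 Dox peaks, all 12 (100%, 75.8 to 100) had a DMSO peak over them, where 92.7% of all Dox peaks did. These intervals, here and elsewhere, cover counting error only. They treat peaks as independent, although peaks of 1 mRNA share its reads, and so are likely too narrow. Both intervals given here reach the background. Among the 12 overlapping pairs, 2 were identical to the base, the DMSO peak was the longer in 9 and the Dox peak in 1, the 3′UTR peak of Nodal. In the DMSO list 1 member peak had its middle base in a 5′UTR, 8 in coding sequence and 5 in a 3′UTR. In the Dox list the numbers were 1, 5 and 5, with 1 Smad7 peak off the transcript used. The middle base lay within 200 nt of the stop codon in 4 of 14 DMSO peaks (28.6%, 11.7 to 54.6), beside 22.9% of all, and in 4 of 11 Dox peaks (36.4%, 15.2 to 64.6), beside 25.1%. The 4 DMSO peaks were in Tdgf1, Smad7, Skil and Id3, and so were the 4 Dox peaks.

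GGAC was found in 10 of 14 DMSO peaks (71.4%, 45.4 to 88.3) and 9 of 12 Dox peaks (75%, 46.8 to 91.1), against 54.0% and 55.9% of all peaks. The motif was searched on the strand of the peak, in the sequence of its exon blocks. Its reverse complement GTCC, a control of the same length and GC content, was found in 8 of 14 and 8 of 12 member peaks, against 36.6% and 37.0% of all. Such shares move with length, since GGAC was in 27.9% of all DMSO peaks under 125 nt and in 96.5% of those of 500 nt or more. Within the length class of 125 to 249 nt, 2 of 4 member DMSO peaks held it, beside 63.1% of all, and in the class of 250 to 499 nt all 4 did, beside 84.8%. Every member peak held at least 1 DRACH match, as did 84.9% of all DMSO and 85.4% of all Dox peaks.

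The covered bases came to 4850 with DMSO and 4125 with Dox, of which 4075 were common, so that 84.0% of the DMSO bases and 98.8% of the Dox bases were shared. The ratio of DMSO over Dox was 1.18, against 1.47 over all protein-coding genes. The DMSO list itself held 1.45 times as many peaks as the Dox list. Ratios over all genes are from these full lists, and none is given at equal list sizes. Among the 5 genes with peaks in both lists, 4 had more DMSO than Dox bases and Nodal was equal, beside 85.7% of all genes in both lists with more DMSO bases. By gene the ratio was 1.00 for Nodal, 1.04 for Tdgf1, 1.12 for Smad7, 1.25 for Id3 and 2.42 for Skil, with a median of 1.12. Over all 4730 genes in both lists the median was 1.42 and the quartiles were 1.14 and 2.00. The share of those genes with a lower ratio was 8.08% for Nodal, 15.5% for Tdgf1, 22.2% for Smad7, 35.2% for Id3 and 81.2% for Skil, so that of the 5 genes Skil alone lay above the median. With equal list sizes the order kept Nodal at the low end (0.909, 1250 against 1375 bases, its DMSO 3′UTR peak being dropped) and Skil at the high end (2.25), with Tdgf1, Smad7 and Id3 unmoved.

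**Figure D4:**
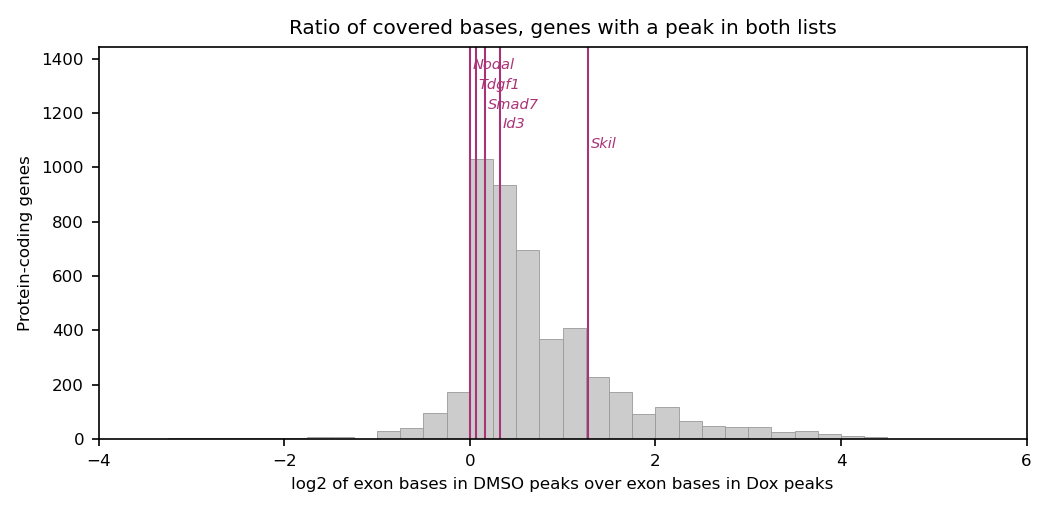
Histogram of the log2 ratio of exon bases in DMSO peaks over exon bases in Dox peaks, for the 4730 protein-coding genes with a peak in both lists (grey, 1 gene beyond the plotted range), with the 5 genes of the set as vertical lines. A value of 0 means equal coverage. Nodal, Tdgf1, Smad7 and Id3 (ratios of 1.00 to 1.25) lie below the median ratio of 1.42 and Skil (2.42) above it. All ratios shown are from the full lists, which differ in size.

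Both lists were checked against marker transcripts. All 10 pluripotency markers (Pou5f1, Sox2, Nanog, Esrrb, Klf4, Zfp42, Tfcp2l1, Sall4, Lin28a, Dppa4) carried a peak in both lists. Of 8 transcripts of 2C-like cells, 2 carried a peak with DMSO and all 8 with Dox, and none of 8 markers of differentiated lineages carried a peak in either list. Over the 8 transcripts of 2C-like cells (Duxf3, Zscan4c, Zscan4d, Usp17la, Tcstv1, Tcstv3, Zfp352 and Tmem92) the peaks covered 625 bases with DMSO and 6222 with Dox. The part of this change in the values of the 10 genes was not tested. Dox induces the Dux transgene by design, and whether the 4 Dox peaks of Duxf3 came from its RNA was not tested. Zfp352 was counted on 1 Dox peak of 25 bases with a low score of 10.2. Zscan4d was counted with DMSO on 1 peak of 25 bases with a score of 10.7, which was dropped with equal list sizes. Near-identical loci were not searched for the peaks of the markers.

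Around these genes, 68 further genes of the pathway were examined. Of these, 25 carried a peak in both lists, 5 in the DMSO list alone, none in the Dox list alone, and 38 in neither, so that DMSO peaks were found in 44.1% and Dox peaks in 36.8%, beside 27.6% and 22.2% of all protein-coding genes. Of the 30 genes with a DMSO peak, 5 had no Dox peak, beside 22.0% of all such genes. They held 91 DMSO and 68 Dox peaks, over 26000 and 20075 bases, a ratio of 1.30 beside 1.47 over all protein-coding genes. By group, peaks in both lists were found in 4 of 5 signal-transducing SMADs. Smad3, being among the 10 genes, was not counted there and had no peak. In the group of inhibitory SMAD, ubiquitin ligases and SMAD co-repressors 9 of 11 genes had peaks in both lists. That group also held Ppm1a, Usp9x and Usp15, each with peaks in both lists, while Smad6 and Smurf2 had none. Of all 21938 protein-coding genes, 4730 had peaks in both lists. Among the ligands 3 of 13 did, a share of 23.1% with either treatment and so near that of all genes, as did 2 of 14 genes of ligand processing and extracellular inhibition. Of the 14 receptors and co-receptors 4 had peaks in both lists, and of the 11 DNA-binding partners, co-activators and targets 3 did. Levels of these mRNAs were not analysed, and these counts carry no test.

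**Figure D5:**
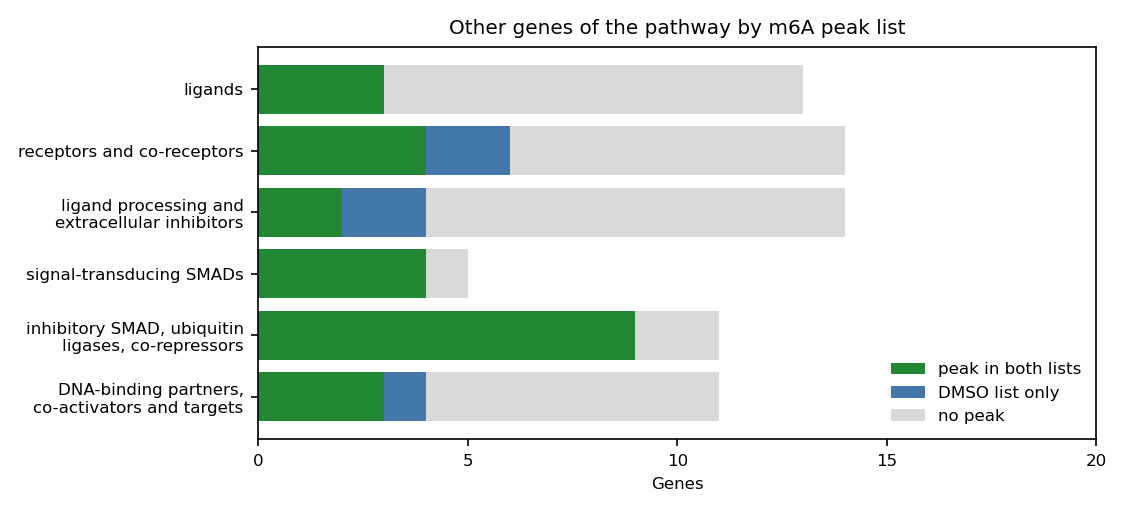
Number of genes in each group of the 68 further pathway genes with a peak in both lists (green), in the DMSO list alone (blue) or in neither (grey). No gene had a peak in the Dox list alone. The group of inhibitory SMAD, ubiquitin ligases and co-repressors, which also holds Ppm1a, Usp9x and Usp15, has 9 of 11 genes with peaks in both lists. The ligands have 3 of 13. Of all 21938 protein-coding genes, 4730 had peaks in both lists.

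The 5 genes with a peak in the DMSO list alone were the receptors Bmpr2 (2 peaks) and Tgfbr1 (1 peak), the convertase Furin (1 peak), the decoy receptor Bambi (1 peak) and the T-box factor Eomes (2 peaks). Like the Id1 peak, they scored low, the best of each gene lying between 10.2 in Bambi and 10.7 in Bmpr2, Furin and Eomes. With equal list sizes none of the 5 genes kept a peak, and 25 genes then carried a peak in each list. Summed over both lists, the most peaks were in Ep300 (10 DMSO, 9 Dox), Ski (7 and 7), Inhbb (6 and 7), Crebbp (6 and 6) and Trim33 (7 and 4). By DMSO peaks alone Zfp423, named here after its values were seen, came after Ep300 with 8 DMSO peaks over 900 bases, against 1 Dox peak over 50 bases.

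Close relatives of the 10 genes did not always follow them. Ski, the co-repressor related to Skil, was covered over 2125 bases with DMSO and 2275 with Dox, where Skil had 725 and 300. Smad2, the partner of Smad3 in Nodal signalling, had 2 peaks in each list (best scores 15.0 and 13.7), where Smad3 had none. Gdf3, a ligand that also signals through Tdgf1, had 1 peak of 750 bases in each list (scores 11.7 and 13.4), covered equally as Nodal was. Smad6, the other inhibitory SMAD, the Id family member Id4 and the Nodal pathway partner Foxh1 had no peak in either list.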

How the data were processed

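Per the labels and the study's methods, the authors filtered reads with fastp 0.19.4, aligned them to mm10 with HISAT2 2.2.1, and called peaks with exomePeak2. The submitters' processing notes also name ChIPseeker. The settings of the caller, and how replicates were combined, are not given in the sources used here. The deposited lists (1 per treatment) gave a score per peak, read as −log10 p-value (lowest 10.0, infinite in 3 DMSO peaks and 1 Dox peak), and 99.8% of inner block edges in each list lay at annotated exon edges. No count or depth was used, so precision is that of the number of peaks.

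Peaks were joined to GENCODE M21 exons in Python 3.11.15 (numpy 2.4.6, pysam 0.24.0, matplotlib 3.10.9), and near-identical loci (98% identity over 90% of a peak) were searched with blastn 2.17.0. Gene assignment, distance from the stop codon, overlap between peaks and the number of shared bases were tested on simulated peaks. The other steps were not. Named were all 10 genes with every peak, further pathway genes with a peak in 1 list alone, the 5 with most peaks over both lists, and a chosen set of relatives and partners (Id4, Ski, Gdf3, Smad2, Smad6 and Foxh1). The genes, lists and rules were chosen with earlier results of these data known. The length and score classes, the basic-transcript alternative and the Tdgf1 DRACH windows were chosen after the values were seen. Alternatives covered score, list size, overlap, strand, introns, gene assignment, transcript, near-identical loci, stop codon window and motif.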

Additional observations from a re-analysis of the deposited data

How the results depend on the processing

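Of 84 alternative values over 13 results, 66 kept within the counting interval of a share or within 1.5 times a count or ratio, and 18 moved further. Strand, introns, 1 gene per peak, the longest or basic transcripts and near-identical loci left 6 and 5 genes and 14 and 12 peaks. With equal list sizes, 5 genes and 11 peaks were left with DMSO. In the top-scoring 50% of each list there were 4 genes and 9 peaks with DMSO, 3 genes and 8 peaks with Dox, 16 further pathway genes with a Dox peak, and 14.3% of Dox peaks at the stop codon. At a score of at least 15 the Smad7 5′UTR peak alone was left, with 1 gene and 1 peak per list and 0% at the stop codon in both. Overlap and GGAC were then at 100% for DMSO, and GGAC at 100% for Dox. Further pathway genes at this cutoff were 5 with DMSO and 0 with Dox. Scores grow with depth, so this cutoff need not be equally strict in both lists. Equal list sizes left 25 further pathway genes in each list. Within 100 nt of the stop codon lay 7.14% of DMSO and 18.2% of Dox peaks, within 400 nt 42.9% and 54.5%, and 21.4% and 16.7% had a base in it. DRACH gave 100% in both lists in place of GGAC. No paired analysis was possible because replicates had been merged before deposit, and for the same reason no replicate could be left out. Depth limits which weak peaks were called.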
